A study of Mus musculus with 12 samples.

Results

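The circadian clock genes described here are the 10 listed members Per1, Per2, Per3, Cry1, Cry2, Arntl, Clock, Nr1d1, Nr1d2 and Dbp. They were taken as the probe sets that the array annotation assigns to exactly 1 gene symbol equal to a member. Each of the 10 genes had 1 such probe set, so 10 rows of 35556 and 10 of 19938 named genes were followed. The cells were Min6, an insulin-producing line from a mouse insulinoma that serves as a beta cell model. In the return condition (RC, 4 arrays) cultures spent 5 days without serum at 5% oxygen and then 5 days in 15% fetal calf serum at 20% oxygen. In the defined condition (DC, 4 arrays) they spent their last 10 days serum-free at 5% oxygen. The serum-free medium was DMEM-F12, to which selenite (30 nM), putrescine (100 µM), progesterone (20 nM) and apo-transferrin (100 µg/mL) had been added. In the classic condition (CC, 4 arrays) they stayed in DMEM with 15% serum and 70 µM 2-mercaptoethanol at 20% oxygen throughout, and the same serum medium was used for RC. All cultures began with 5 days in serum medium, and penicillin-streptomycin (100 µg/mL) was present in both media. Serum, oxygen, base medium and supplements changed together and cannot be told apart, and RC and DC also differ in the number of serum-free days. The quadruplicates come from a single experiment, so p-values measure the spread between these cultures. The labels give no hour of harvest or of medium change and each condition was sampled at its end point, so the values are levels and show no rhythm, phase or amplitude.

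The mammalian clock is a transcriptional feedback loop. The activators encoded by Arntl (BMAL1) and Clock bind E-boxes and raise transcription of the Per and Cry genes, whose proteins return to the nucleus and repress that activity. A linked loop is formed by the nuclear receptors REV-ERB alpha and beta (Nr1d1 and Nr1d2), which repress Arntl, and the ROR receptors, which activate it, while DBP drives a further set of genes through D-boxes. In mouse islets the clock is known to time insulin secretion, and serum is widely used to set the clocks of cultured cells.

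Array medians lay between 7.92 and 8.05 log2 units, and the interquartile range was 2.42 to 2.75. Array RC 3 stood apart, with a mean correlation of 0.976 with the other RC arrays, against 0.989 to 0.990 for those. The clock genes that passed in each comparison below were the same without it. Min6 identity was checked on 8 beta cell markers, of which Iapp averaged 13.82, Ins2 13.03 and Slc2a2, the lowest, 7.80. A gene passed where its limma p, adjusted over all rows, was under 0.05. Slc30a8, the zinc transporter of insulin granules, rose by 0.31 in DC against CC and fell by 0.45 in RC against DC, and no other beta cell marker passed. The others went both ways in DC against CC. Iapp and Pdx1 were at -0.10 and Chga at -0.03, while Slc2a2 was at 0.29, Mafa at 0.28, Nkx6-1 at 0.10 and Ins2 at 0.01. Every DC array lay below every CC array for Iapp and above every CC array for Slc2a2. Slc2a2 averaged below the median of all values (7.99) and read highest on DC 4 (8.15) and RC 3 (8.06), the arrays described below as narrow in spread. The mean log2 level of the 8 beta cell markers lay between 11.52 and 11.61 on RC arrays, 11.62 and 11.75 on DC arrays and 11.56 and 11.61 on CC arrays, so the DC arrays lay above all others. Of 4 markers of other islet cells, Gcg averaged 12.34, and Sst fell by 1.26 in DC against CC and was higher by 1.70 in RC against DC. The others did not pass in DC against CC, where Gcg was at -0.17, Ppy at -0.04 and Ghrl at 0.13. The mean log2 level of these 4 lay between 10.47 and 10.70 on RC arrays, 10.02 and 10.39 on DC arrays and 10.36 and 10.61 on CC arrays. No marker passed among 3 exocrine genes or 7 genes of fibroblasts, endothelium and immune cells in any comparison (0 and 2 at an unadjusted p under 0.05 in DC against CC, 0 in the other comparisons). Of all 35556 rows, 7311 met that cutoff in DC against CC, 4202 in RC against DC and 3220 in RC against CC. The 7 genes of fibroblasts, endothelium and immune cells were nonetheless all above 0 in DC against CC, as were 21444 of all 35556 rows. The median difference of the 7 was 0.18, against 0.04 for all rows. The 3 exocrine genes were also all above 0 there, with a median of 0.14. Of the 7, Dcn (6.85), Pecam1 (7.25), Kdr (6.95) and Ptprc (6.37) averaged below the median of all values, 7.99. The others, Col1a1 (8.76), Col1a2 (8.70) and Cd68 (9.81), averaged above it. The mean log2 level of the 7 lay between 7.73 and 7.99 on RC arrays, 7.83 and 7.97 on DC arrays and 7.63 and 7.80 on CC arrays, so DC and CC did not overlap. Col1a1, Col1a2, Dcn, Pecam1, Kdr and Ptprc read highest on RC 3, DC 4 and DC 2. These arrays had the narrowest interquartile ranges (2.42, 2.44 and 2.47). Cd68 went the other way and was lowest on DC 4 (9.25). The part of the array spread in these marker differences was not tested. The part of these marker lists in the clock gene results was not tested. In bulk RNA, fewer cells of a type and less RNA per cell cannot be told apart.

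In the serum-free, low-oxygen cultures the clock genes did not move as a block. Per3 and Nr1d1 rose and Per2 fell in DC against CC, each by less than 1.5-fold. The Nr1d1 call held in only 4 of the 12 fits that left out 1 array, those of Per3 and Per2 in all 12. In RC against DC, Per3, Nr1d1 and Cry2 were lower and no member was higher. In RC against CC no member passed the test. Arntl, Clock, Cry1, Per1, Nr1d2 and Dbp passed in no comparison.

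To show what lies before the genes that differed, the 250 bases upstream of the annotated start were read from RefSeq (GRCm38.p6). Of the 10 members 9 had a start in that table, with 13 starts in all, and Per2 had none. The first 3 sequences belong to members that passed a test (Per3, Nr1d1 and Cry2), including one, Cry2, that passed only in RC against DC. The next belongs to Ciart, a related gene described below that rose, and the last 2 to members that did not pass (Cry1, and the first of 2 starts of Per1). Capitals mark matches, on either strand, to the E-box CACGTG, the E-prime box CACGTT, the D-box TTATGTAA or TTACGTAA, the ROR element core AGGTCA and the hypoxia response element core ACGTG. The last of these lies inside every E-box and E-prime box match. The windows are chr4:151044666-151044915 (Per3), chr11:98775378-98775627 (Nr1d1), chr2:92434070-92434319 (Cry2), chr3:95882229-95882478 (Ciart) and chr10:85185055-85185304 (Cry1), all on the minus strand, and chr11:69098699-69098948 (Per1) on the plus strand.
Per3: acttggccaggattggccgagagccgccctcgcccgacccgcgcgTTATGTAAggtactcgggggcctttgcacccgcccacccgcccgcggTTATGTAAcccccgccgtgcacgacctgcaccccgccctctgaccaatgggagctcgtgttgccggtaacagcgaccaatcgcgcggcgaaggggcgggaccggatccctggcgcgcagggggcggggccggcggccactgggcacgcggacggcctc
Nr1d1: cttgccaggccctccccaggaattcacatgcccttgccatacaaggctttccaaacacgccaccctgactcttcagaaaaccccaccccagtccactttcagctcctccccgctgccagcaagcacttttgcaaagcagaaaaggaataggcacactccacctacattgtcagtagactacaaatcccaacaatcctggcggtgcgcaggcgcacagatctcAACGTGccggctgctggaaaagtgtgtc
Cry2: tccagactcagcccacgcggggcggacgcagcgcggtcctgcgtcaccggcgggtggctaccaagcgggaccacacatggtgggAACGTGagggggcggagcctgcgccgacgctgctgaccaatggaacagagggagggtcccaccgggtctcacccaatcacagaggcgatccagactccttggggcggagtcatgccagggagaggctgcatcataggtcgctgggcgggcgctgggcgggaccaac
Ciart: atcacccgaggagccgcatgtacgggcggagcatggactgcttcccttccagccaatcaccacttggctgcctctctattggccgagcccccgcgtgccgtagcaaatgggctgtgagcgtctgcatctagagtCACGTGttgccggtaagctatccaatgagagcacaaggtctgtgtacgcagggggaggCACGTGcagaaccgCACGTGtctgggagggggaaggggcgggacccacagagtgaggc
Cry1: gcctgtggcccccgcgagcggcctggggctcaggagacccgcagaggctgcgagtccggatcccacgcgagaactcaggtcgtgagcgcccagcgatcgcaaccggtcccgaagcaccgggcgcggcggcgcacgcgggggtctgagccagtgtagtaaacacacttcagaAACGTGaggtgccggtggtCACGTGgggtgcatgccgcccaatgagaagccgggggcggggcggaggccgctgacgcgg
Per1: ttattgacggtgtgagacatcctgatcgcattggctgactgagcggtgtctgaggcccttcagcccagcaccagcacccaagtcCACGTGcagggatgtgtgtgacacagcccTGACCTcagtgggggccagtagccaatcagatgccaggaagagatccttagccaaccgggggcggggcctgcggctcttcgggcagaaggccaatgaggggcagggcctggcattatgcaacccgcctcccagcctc

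Per3 carried 2 D-box matches, 205 to 198 and 158 to 151 bases before its start, and no other member start held one. A D-box match was present in 0.931% of all 32851 starts in the table. The E-box was found before 2 of the 13 member starts, those of Cry1 and Per1, and before 6.02% of all starts. Ciart had 3 E-boxes, 116 to 111, 58 to 53 and 44 to 39 bases upstream. The E-prime box was found before 3 member starts (Cry1, Cry2 and Nr1d1) and 3.85% of all starts, in Nr1d1 only 28 to 23 bases from the start. The ROR element core was found before 3 member starts (Per1, Clock and Nr1d2) and 14% of all starts, and ACGTG before 5 member starts and 16.6% of all. Starts of the same gene can overlap, and a match is a run of letters and not a shown binding site. E-box and E-prime matches stood before members that passed a test (Nr1d1, Cry2) and before members that did not (Cry1, Per1).

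**Figure D1:**
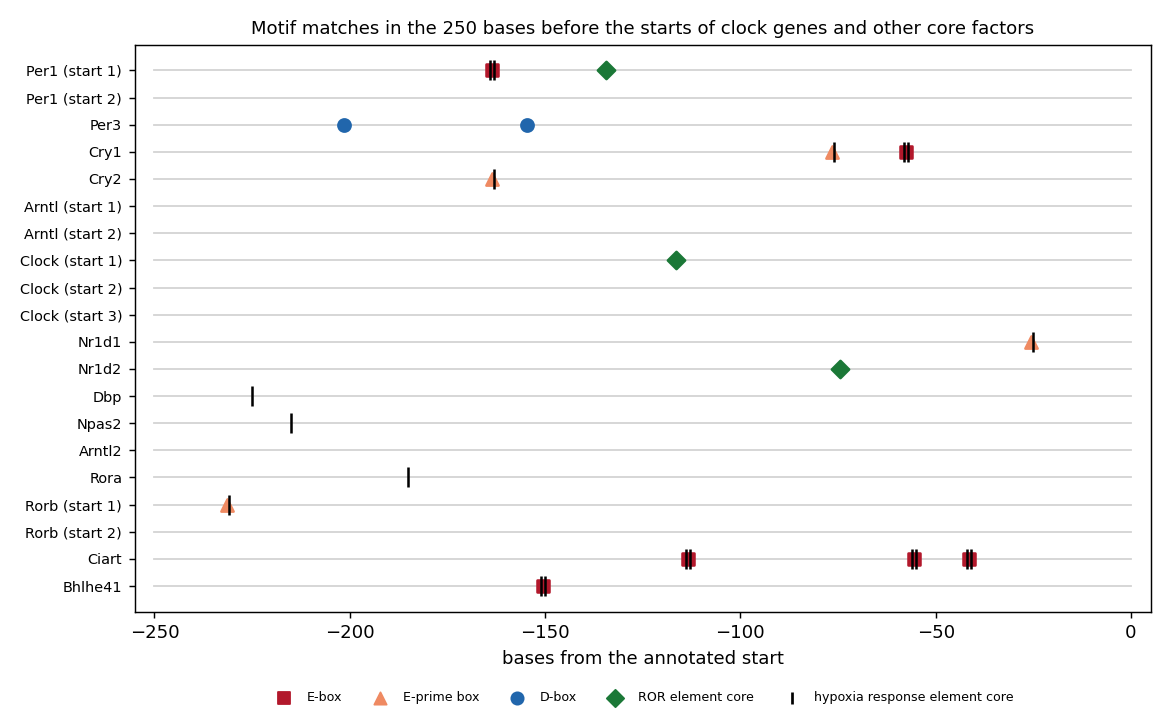
Motif matches in the 250 bases before the annotated RefSeq starts of the clock genes and of other core clock factors; the horizontal axis is distance from the start in bases and each row is 1 start. Per3 shows 2 D-box matches and Ciart 3 E-boxes, each E-box also holding the hypoxia response element core on both strands.

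DC was compared with CC to find how 10 days without serum at 5% oxygen changed the clock genes. Of the 10 members 2 rose and 1 fell (limma, Benjamini-Hochberg adjusted over all 35556 rows). Over all rows 6.64% were called, 2.31% higher and 4.32% lower in DC. The 4 arrays of each group did not overlap for 4 members (Per2, Per3, Cry2 and Nr1d1), against 15.3% of all rows. The median log2 difference of the members was -0.07, and of all rows 0.04. Centring every array on the same median left 1 member higher (Per3) and 1 lower (Per2).

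Per3, a repressor of the period family, read 9.18, 9.06, 9.04 and 9.32 in DC, against 8.68, 8.76, 8.71 and 8.71 in CC. Every DC array lay above every CC array. In log2 units Per3 rose by 0.44 ± 0.07 (SE of the difference, 4 arrays in each condition), which is 1.35-fold (limma adjusted p = 0.0018). It passed in each of the 12 fits that left out 1 array, with adjusted p-values of 0.0015 to 0.0087.

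Per2, a core repressor of the same family, read 9.81, 9.54, 9.52 and 9.62 in DC, against 10.01, 9.93, 10.09 and 9.98 in CC. All DC values lay below the CC values, the closest being DC 1. Per2 fell by 0.38 ± 0.08 (1.30-fold; limma adjusted p = 0.010). It passed without any single array (adjusted p up to 0.042), but not when only CC 1 and CC 2, or only CC 3 and CC 4, stood for CC. Per2 also did not pass without the 3 arrays of narrowest interquartile range.

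Per1, the family member that responds quickly to hormones and cyclic AMP, read 10.16, 9.95, 9.83 and 9.71 in DC, against 9.93, 9.97, 10.11 and 10.09 in CC. The DC arrays spread over a wider range than the CC arrays and overlapped them. Its difference was -0.11, with a 95% interval of -0.34 to 0.12 (limma adjusted p = 0.52). Of the period genes, then, Per3 rose, Per2 fell and Per1 did not pass.

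Nr1d1, which encodes the heme-binding repressor REV-ERB alpha, read 10.70, 10.43, 10.56 and 10.77 in DC, against 10.12, 10.31, 10.35 and 10.27 in CC. The groups were separate, the gap between DC 2 and CC 3 being narrow. Nr1d1 rose by 0.35 ± 0.09 (1.28-fold; limma adjusted p = 0.034). This call held in 4 of the 12 fits without 1 array (without RC 1, RC 2, RC 3 or DC 2). It was lost without RC 4, DC 1, DC 3, DC 4 or any CC array (adjusted p up to 0.118), and with arrays centred (adjusted p = 0.071). It was also lost with the interquartile range as covariate (adjusted p = 0.087), without the 3 arrays of narrowest interquartile range (adjusted p = 0.057) and with either pair of CC arrays alone (adjusted p up to 0.273). Nr1d2, its close relative, averaged 10.46 ± 0.12 in DC and 10.54 ± 0.07 in CC (SD, n = 4 each). Its difference was -0.08, with a 95% interval of -0.22 to 0.07.

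The cryptochromes, which repress CLOCK and BMAL1 together with the period proteins, were measured by 1 probe set each. Cry2 read 9.82, 9.67, 9.69 and 9.71 in DC, against 9.48, 9.64, 9.53 and 9.53 in CC. The groups did not overlap, but the difference of 0.18 ± 0.06 did not pass (limma adjusted p = 0.086). It passed with quantile normalization (0.25; adjusted p = 0.011), with array weights (0.17; adjusted p = 0.030) and with the interquartile range as covariate (0.21; adjusted p = 0.039), the last a setting in which Nr1d1 did not pass. Cry1 averaged 8.45 ± 0.14 in DC and 8.51 ± 0.07 in CC (SD, n = 4 each), with a 95% interval of -0.21 to 0.10 for the difference. The difference of Cry1 was -0.06, and 0.01 without DC 4.

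The activator genes were not called. Arntl read 8.85, 9.07, 9.14 and 8.66 in DC, against 9.09, 9.21, 9.09 and 9.06 in CC. Only DC 1 and DC 4 lay below all CC arrays. Its difference was -0.18, with a 95% interval of -0.39 to 0.02 (limma adjusted p = 0.28), and -0.09 without DC 4. Clock, which encodes the partner of BMAL1, averaged 10.73 ± 0.17 in DC and 10.90 ± 0.08 in CC (SD, n = 4 each), a difference of -0.16 with a 95% interval of -0.36 to 0.04. Dbp, a D-box activator and a common marker of clock output, averaged 9.77 ± 0.11 in DC and 9.61 ± 0.06 in CC (SD, n = 4 each). CC 1 stood above the other CC arrays, at 9.70. The difference of 0.16 (95% interval 0.01 to 0.31) did not pass over all rows (limma adjusted p = 0.22).

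**Figure D2:**
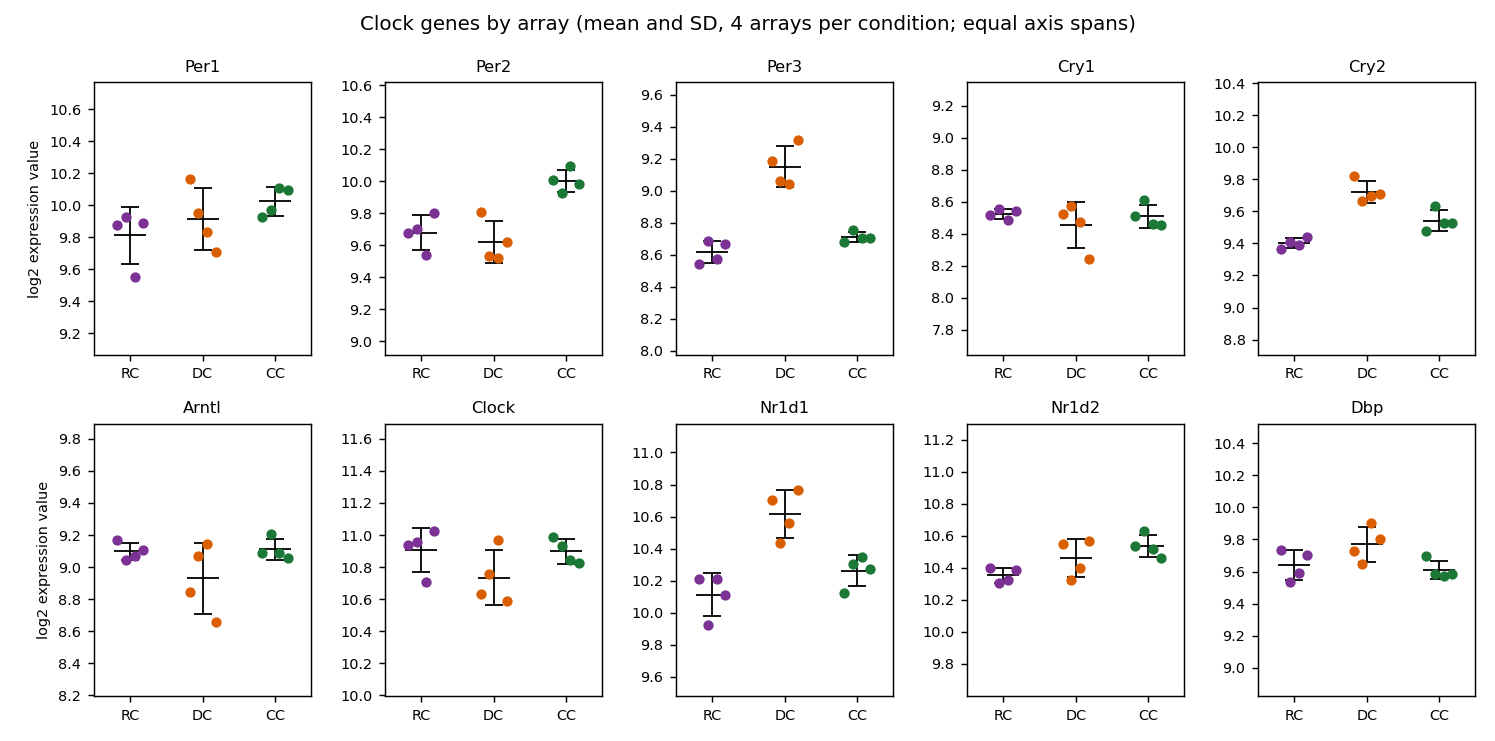
Log2 expression values of the 10 clock genes on each array, by condition (RC, DC and CC from left to right); points are arrays 1 to 4, and bars give the mean and SD of 4 arrays. Per3 lies between 9.04 and 9.32 in DC and at 8.76 or below in both other conditions, and Per2 lies at 9.81 or below in RC and DC and at 9.93 or above in CC.

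The comparison of RC with DC asked how clock gene levels differed after 5 days back in serum at 20% oxygen. Of the 10 members 3 were lower in RC and 0 were higher, against 2.63% of all rows called, 1.18% lower and 1.45% higher. The groups did not overlap for these 3 members, against 6.29% of all rows. The median log2 difference was -0.11 for the members and -0.01 for all rows. The DC arrays enter both this comparison and the one before it, so the pair is not independent.

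Per3 read 8.54, 8.69, 8.58 and 8.67 in RC, against the DC values of 9.04 to 9.32 given above. It fell by 0.53 ± 0.07 in RC against DC (1.45-fold; limma adjusted p = 0.0010), and by 0.52 without RC 3. Nr1d1 read 10.21, 9.92, 10.21 and 10.11 in RC, against 10.43 to 10.77 in DC. It fell by 0.50 ± 0.09 (1.42-fold; limma adjusted p = 0.0090), and by 0.54 without RC 3. Cry2 read 9.37, 9.41, 9.39 and 9.44 in RC, against 9.67 to 9.82 in DC. It fell by 0.32 ± 0.06 (1.25-fold; limma adjusted p = 0.0081), and also by 0.32 without RC 3. All 3 genes passed in each fit that left out 1 array, with adjusted p-values up to 0.0059 for Per3, 0.032 for Nr1d1 and 0.036 for Cry2.

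Per2 averaged 9.68 ± 0.11 in RC and 9.62 ± 0.13 in DC (SD, n = 4 each), and the 95% interval of its difference ran from -0.11 to 0.23 (limma adjusted p = 0.87). Arntl averaged 9.10 ± 0.05 in RC and 8.93 ± 0.22 in DC, with a 95% interval of -0.04 to 0.37, and its difference of 0.17 was 0.08 without DC 4. Clock had an interval of -0.03 to 0.37, Dbp of -0.28 to 0.02, Nr1d2 of -0.25 to 0.04, Cry1 of -0.09 to 0.23 and Per1 of -0.34 to 0.13. None of these 7 genes passed.

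RC was compared with CC to find what differed between cells that had spent 5 days serum-free and cells that had not. No member passed by limma, and 3 had an unadjusted p under 0.05, as did 3220 of all 35556 rows. Over all rows 0.796% were called, 0.121% higher and 0.675% lower in RC. With array weights, and with only rows of 1 gene symbol tested, 1 member passed, Per2. These settings called 7.93% and 2.25% of the rows tested. The groups did not overlap for 3 members (Per2, Cry2 and Nr1d2, each lower in RC), against 7.94% of all rows.

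Per2 read 9.68, 9.70, 9.54 and 9.80 in RC, against 10.01, 9.93, 10.09 and 9.98 in CC. Its difference was -0.32 ± 0.08, with a 95% interval of -0.49 to -0.15 (limma adjusted p = 0.097), beside -0.38 in DC against CC. It was -0.28 without RC 3. The same CC arrays enter the comparisons of RC and of DC with CC, so these differences are not independent. Nr1d2 differed by -0.18 ± 0.07 (limma adjusted p = 0.37) and Cry2 by -0.14 ± 0.06 (limma adjusted p = 0.44). Per1 differed by -0.21 (95% interval -0.44 to 0.02), and by -0.13 without RC 3, and Dbp by 0.03 (95% interval -0.12 to 0.18). For Per3 the interval ran from -0.24 to 0.05 and for Nr1d1 from -0.35 to 0.05. For Arntl, Clock and Cry1 the estimates lay within 0.02 of 0, with the widest interval, that of Arntl, from -0.22 to 0.19.

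**Figure D3:**
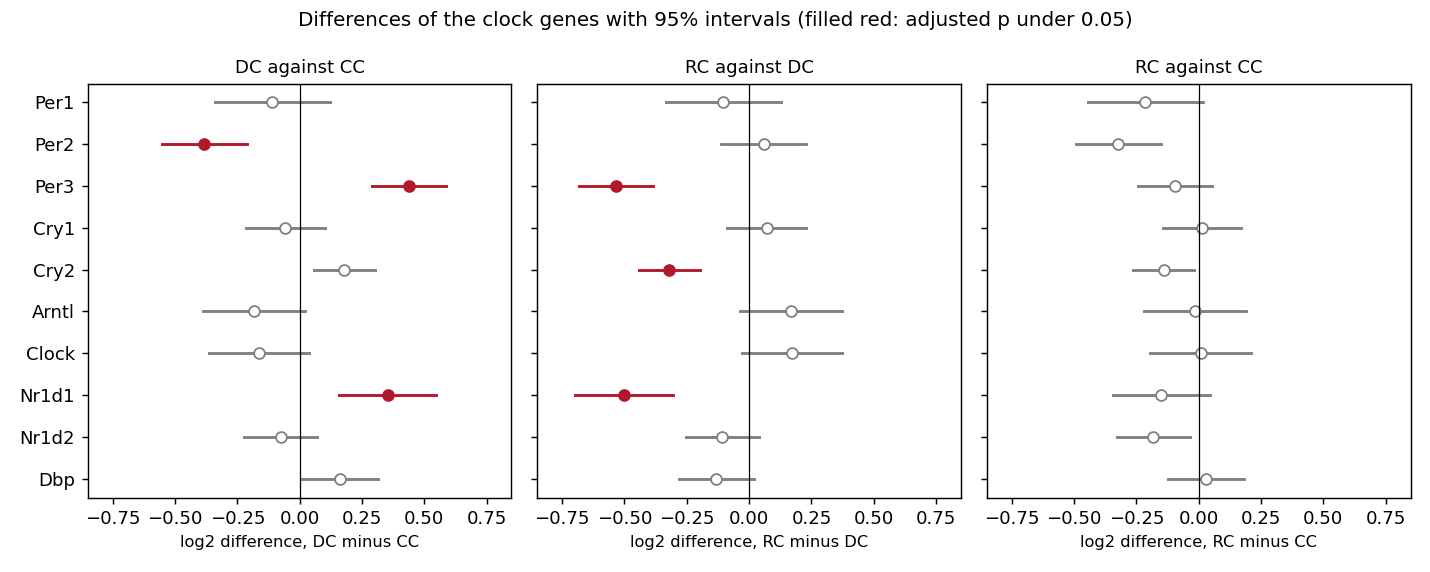
Log2 differences of the 10 clock genes in the 3 comparisons with their 95% intervals from the limma fit; filled red points passed at an adjusted p under 0.05. In DC against CC, Per3 (0.44) and Nr1d1 (0.35) lie above 0 and Per2 (-0.38) below; in RC against DC, Per3, Cry2 and Nr1d1 lie below 0; in RC against CC no point is filled.

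The DC arrays differed among themselves for several members. DC 4 had the lowest reading of all 12 arrays for Arntl (8.66), Clock (10.59) and Cry1 (8.24), and the highest for Per3 (9.32) and Nr1d1 (10.77). DC 3 had the highest Dbp (9.90), and its Arntl and Clock values (9.14 and 10.97) lay among those of RC and CC. In RC the spread was small for Cry1 and Cry2 (SD 0.03 each), while RC 3 was low for Per1 (9.55). What set these arrays apart was not tested.

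**Figure D4:**
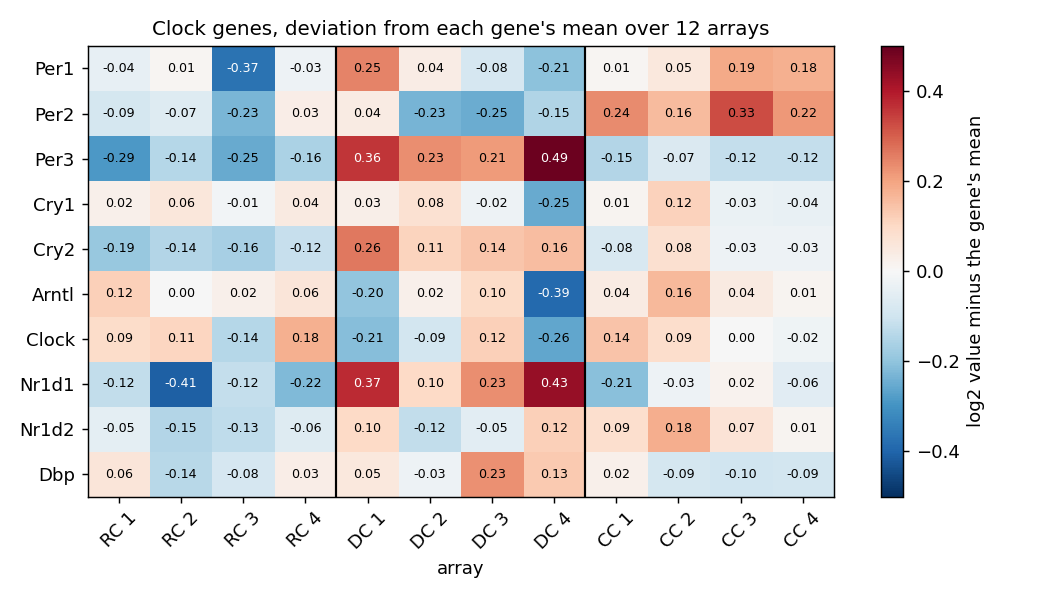
Deviation of each clock gene from its own mean over the 12 arrays, on the log2 scale, with RC, DC and CC arrays from left to right and values printed in the cells. Per3, Cry2 and Nr1d1 are above their means on all 4 DC arrays, and Arntl and Clock are furthest below theirs on DC 4.

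Genes that followed the members most closely over the 12 arrays were read off as a description. The correlations pool the 3 conditions, the arrays are shared, and the genes are the 5 highest for each member, so high values follow from the choice. For Per3 they were Mast1, Fras1, Dop1b, the sterol regulator Srebf2 and the islet factor Nkx2-2, with Pearson r of 0.96 to 0.98, and 0.72 to 0.93 for deviations from the condition means. For Nr1d1 they were the somatostatin receptor gene Sstr3, Grb7, Blcap, Zkscan14 and Castor2 (r of 0.92 to 0.93, and 0.58 to 0.87 for the deviations). For Per2 they were Creb3l2, Eogt, Gabrq, Rnf121 and Lacc1 (r of 0.94 to 0.96, and 0.80 to 0.90 for the deviations).

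Other genes of the clock were read from 6 lists, in which 49 of 55 listed genes had a probe set, 52 in all. In DC against CC 6 of these probe sets rose and 5 fell, with 2.31% of all rows called higher and 4.32% lower. In RC against DC 2 were higher and 1 lower (1.45% and 1.18% of all rows), and in RC against CC 1 was higher (0.121% of all rows). In DC against CC the calls lay mostly among the other core factors, where 5 of 7 probe sets rose and 1 fell. Their median difference was 0.72, against 0.04 for all rows. The 7 probe sets are of 6 genes, and 2 of the 5 that rose are both of Ciart. Of the core factor probe sets, 1 was lower in RC against DC and 0 passed in RC against CC.

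Ciart, which encodes a repressor of CLOCK and BMAL1 (also named CHRONO), has 2 probe sets. Probe set 10373452 read 9.40, 9.59, 9.58 and 8.85 in DC, against 8.34, 8.38, 8.42 and 8.53 in CC. DC 4 was the lowest DC array but still above every CC array. The gene rose by 0.93 ± 0.14 (1.91-fold; limma adjusted p = 0.0016) on this probe set and by 0.83 ± 0.16 on probe set 10500272 (limma adjusted p = 0.0081). In RC against DC the first fell by 0.72 ± 0.14 (limma adjusted p = 0.018), a call lost without RC 2, DC 2 or DC 3 (adjusted p up to 0.066), with only the compared groups in the fit and with replicate number as a block. The other was at -0.64 and did not pass (limma adjusted p = 0.065); of the fits without 1 array, it passed without RC 3 or DC 4.

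Bhlhe40 and Bhlhe41 encode the DEC repressors, which compete at E-boxes and are also known targets of hypoxia-inducible factors. Bhlhe40 read 8.73, 9.06, 9.48 and 8.30 in DC, against 7.91, 8.05, 7.88 and 7.95 in CC. It rose by 0.95 ± 0.20 (1.93-fold; limma adjusted p = 0.011), and Bhlhe41 by 0.71 ± 0.15 (1.63-fold; limma adjusted p = 0.013). In RC they averaged 8.58 ± 0.22 and 9.37 ± 0.25 (SD, n = 4), 0.63 and 0.54 from CC and -0.31 and -0.17 from DC, and passed in neither comparison. Bhlhe40 passed in RC against CC with only those groups in the fit, and both genes with array weights. Bhlhe41 also passed there with the interquartile range as covariate and without the 3 arrays of narrowest interquartile range.

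The ROR genes moved in opposite directions in DC. Rora read 9.62, 9.81, 9.81 and 9.16 in DC, against 8.95, 9.04, 8.74 and 8.80 in CC, and rose by 0.72 ± 0.13 (1.64-fold; limma adjusted p = 0.0039). Rorb read 8.89, 8.53, 8.68 and 8.45 in DC, against 9.33, 9.35, 9.13 and 9.17 in CC, and fell by 0.61 ± 0.09 (1.52-fold; limma adjusted p = 0.0015). In RC against DC they were at -0.39 and 0.33 and did not pass. Of the fits without 1 array, Rora passed there without DC 4 and Rorb without DC 1. In RC against CC Rora was at 0.33 and Rorb at -0.27. Neither passed, though the groups did not overlap for either gene, and Rora passed with array weights. Arntl2, a paralogue of Arntl, was at -0.21 in DC against CC with a limma adjusted p of 0.065, and passed without RC 3 and under several other settings.

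**Figure D5:**
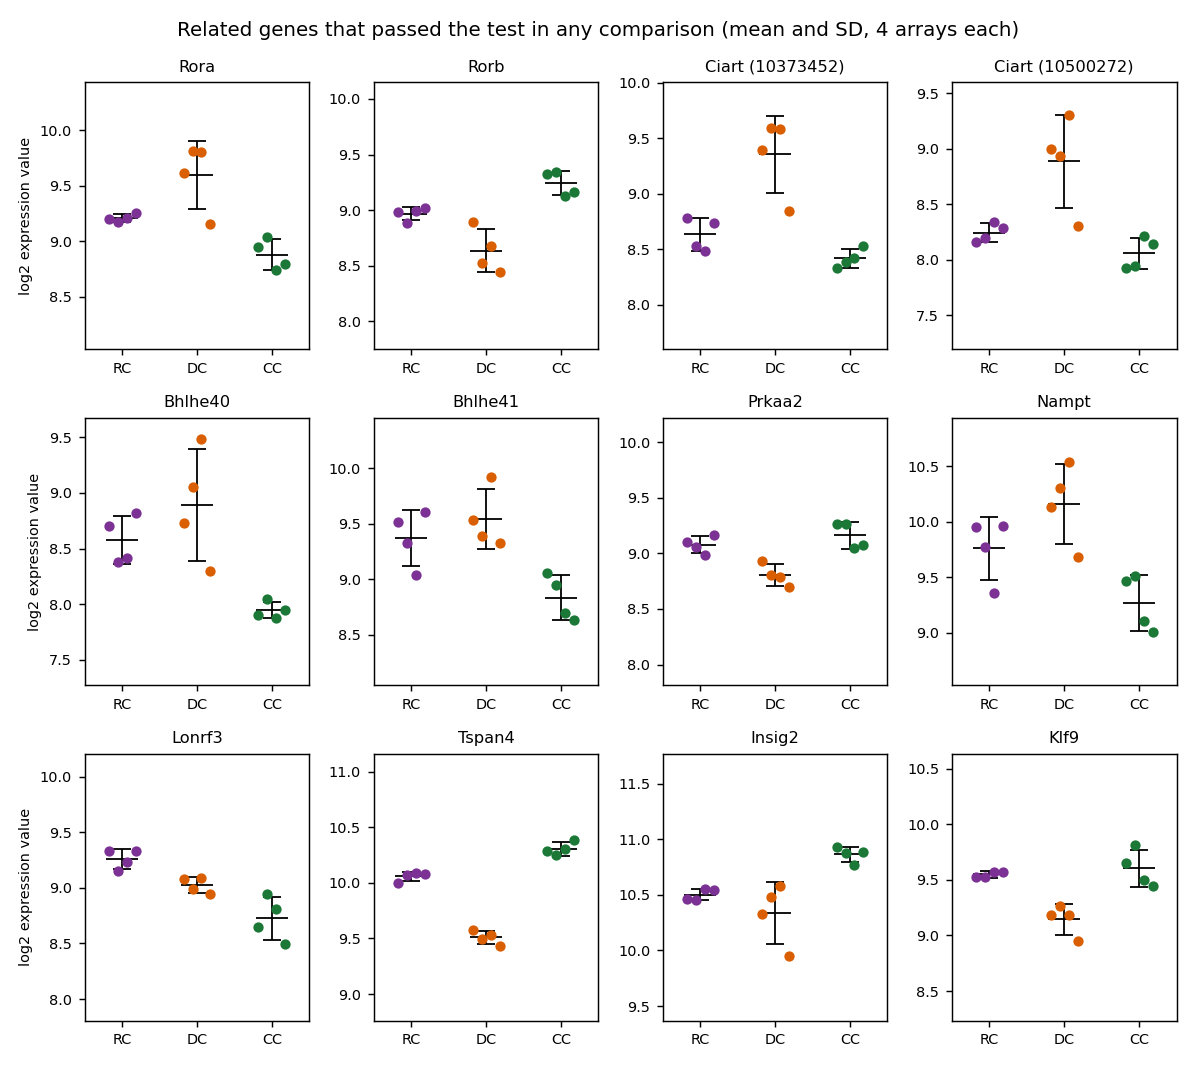
Log2 expression values, by condition, of the 12 probe sets of related genes that passed in at least 1 comparison; points are arrays 1 to 4 and bars give the mean and SD of 4 arrays. Ciart, Rora and Nampt are lowest among the DC arrays on DC 4. Tspan4 lies between 9.44 and 9.58 in DC, 10.00 and 10.09 in RC and 10.25 and 10.39 in CC.

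Among 5 clock-controlled outputs, 1 rose and 2 fell in DC against CC, where 6.64% of all rows were called. Nampt, the rate-limiting enzyme of NAD salvage, rose by 0.89 ± 0.19 (1.85-fold; limma adjusted p = 0.012). The tetraspanin gene Tspan4 fell by 0.80 ± 0.06 (limma adjusted p = 4.5e-06), and Insig2, which restrains SREBP processing, by 0.53 ± 0.11 (limma adjusted p = 0.011). Tspan4 was higher in RC against DC, by 0.55 ± 0.06. In RC against CC Tspan4 was at -0.25 and did not pass (limma adjusted p = 0.069), though every RC array lay below every CC array. It passed there with arrays centred and under several other settings. Lonrf3 was higher in RC against CC, by 0.53 ± 0.09 (limma adjusted p = 0.023). This call was lost without RC 1, RC 4, CC 1, CC 3 or CC 4 (limma adjusted p up to 0.091). It was also lost with only the compared groups in the fit, with replicate number as a block and with either pair of CC arrays alone. Lonrf3 was at 0.30 in DC against CC and passed there without CC 2, and Insig2 was at -0.36 in RC against CC and passed there without DC 4.

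Of 6 genes induced by glucocorticoids, 1 fell in DC against CC, Klf9 (-0.46 ± 0.09; limma adjusted p = 0.0069), with 4.32% of all rows called lower. Klf9 was higher in RC against DC, by 0.40 ± 0.09 (limma adjusted p = 0.029). This call was lost without RC 1, RC 2, RC 4, DC 3 or DC 4 (limma adjusted p up to 0.093). It was also lost with arrays centred and without the 3 arrays of narrowest interquartile range. Of the genes on this list that did not pass in DC against CC, Dusp1 (-0.53; limma adjusted p = 0.053) passed without RC 3, DC 2 or DC 3, and Tsc22d3 (-0.25) without DC 1. Others on the list differed the other way. Fkbp5 was at 0.22 (limma adjusted p = 0.16), with every DC array above every CC array, and passed with quantile normalization, with the interquartile range as covariate and with array weights. Zbtb16 was at 0.27 (limma adjusted p = 0.18), and as low as 0.09 in the other fits. It averaged 7.57, below the median of all values (7.99). Its highest readings were on DC 2, DC 4 and RC 3, the arrays of narrowest interquartile range. Of 18 probe sets of clock kinases and ubiquitin enzymes, 1 fell in DC against CC, that of the AMP kinase subunit gene Prkaa2 (-0.36 ± 0.07; limma adjusted p = 0.012), a share near the 4.32% of all rows called lower. In RC against DC it was at 0.27 and passed without RC 3.

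None of the D-box factor genes Tef, Hlf and Nfil3 passed in any comparison. Nfil3, which competes with DBP at D-boxes, was at -0.23 (95% interval -0.54 to 0.09; -0.05 without DC 4, where it read 8.26) and Hlf at 0.07 in DC against CC, and 0 of the 3 had an unadjusted p under 0.05 there by limma, against 1 in RC against DC and 2 in RC against CC. Tef passed in RC against DC (-0.24) without RC 3, with the interquartile range as covariate and with array weights. Array weights also called Tef and Hlf in RC against CC. None of 13 cofactor genes passed in any comparison by limma, with 3, 1 and 1 at an unadjusted p under 0.05 in DC against CC, RC against DC and RC against CC. Of all 35556 rows, 7311, 4202 and 3220 were under that cutoff in these comparisons. The smallest p-values of the cofactor genes in DC against CC were those of Kat2b (-0.30) and Nono (-0.20). Array weights called Cipc and Kat2b in RC against DC and Wdr5 in RC against CC. That setting called 18% of all rows in RC against DC and 7.93% in RC against CC.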

How the data were processed

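Total RNA of 12 Min6 cultures was converted to biotinylated cDNA and hybridised to whole-transcript arrays, per the labels' protocols. The authors deposited 1 log2 expression value per probe set and array, for 35556 probe sets. The log2 scale was inferred from the range. The sources used here do not give the probe summarisation, the normalization between arrays or the genome build. No further normalization or filter was applied for the main results. Gene symbols came from the platform's annotation table, in which 21789 probe sets have 1 symbol, 1621 several and 12146 none. Without detection calls no level was set against background. Precision is limited by the 4 arrays per condition. Groups and replicate numbers were taken from the sample titles.

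All rows and all 12 arrays entered a single limma fit with a mean for each condition, using limma 3.58.1 (lmFit, contrasts.fit, eBayes) in R 4.3.3, with 9 residual degrees of freedom. Tests were two-sided, p-values were Benjamini-Hochberg adjusted over all rows of each comparison, and the threshold was 0.05. Errors of differences are moderated standard errors. The members and the related lists were chosen with earlier results of these data known. All members are named. Of each related list every called gene is named, otherwise the 2 with the smallest p in DC against CC; Tef, Arntl2, Cipc, Wdr5, Dusp1, Tsc22d3, Fkbp5 and Zbtb16 were named after their values were seen. Genes of like pattern are given for the 3 members with the widest range of condition means, leaving out predicted, clone-named, microRNA, small nucleolar and olfactory receptor genes. Listed genes without a probe set of 1 symbol were not analysed here. Alternatives were another normalization, centring, the interquartile range as a covariate, array weights, filters on rows, the groups in the fit, the variance model, the replicate block and leaving out arrays. Motifs were searched with Python 3.11.15 in RefSeq sequences.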

Additional observations from a re-analysis of the deposited data

Results flagged for a closer look

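Each set of 4 arrays was examined for a value far from the other 3, a rule that chance meets in about 1 set in 20. Among the 30 sets of the clock genes 2 were marked. Per1 read 9.55 on array RC 3, against 9.88 to 9.93 on the other RC arrays. Without RC 3 its difference was -0.02 in RC against DC and -0.13 in RC against CC. Dbp read 9.70 on array CC 1, against 9.57 to 9.59 on the other CC arrays. Among 156 sets of related genes 10 were marked, 8 of them on RC 3. Of the named genes this concerned Kat2b, which read 7.99 on RC 3, against 8.39 to 8.42 on the other RC arrays.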

How the results depend on the processing

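The 3 clock genes lower in RC against DC passed under all 24 alternatives tried. In DC against CC, where 3 passed, Per3 passed under all 24, while 1 clock gene passed without the 3 arrays of narrowest interquartile range (RC 3, DC 4 and DC 2), with CC 1 and CC 2 only and with CC 3 and CC 4 only, and leaving out single arrays gave 2 to 3. In RC against CC, where 0 passed, 1 passed with array weights and with only rows of 1 symbol, and 0 without any single array. These 2 settings called 7.93% and 2.25% of the rows tested. Related probe sets called in DC against CC numbered 11, and 6 with either pair of CC arrays (11 to 13 without single arrays). The CC pairs called 4.41% and 2.79% of all rows there, against 6.64% in the main fit. In RC against DC the related probe sets called numbered 3 (2 higher and 1 lower). The count was 5 with quantile normalization (4 and 1), 8 with each array's interquartile range as covariate (4 and 4), 13 with array weights (8 and 5), 5 with rows of 1 symbol (3 and 2) and, with arrays centred on a common median, 2 (1 and 1). In this order, these settings called 3.47%, 4.89%, 18%, 4.76% and 2.05% of the rows tested, against 2.63% in the main fit. Without single arrays the count was 1 to 6, at 1 without RC 2 or DC 3, 2 without RC 1, RC 4 or DC 2 and 6 without RC 3. The balance turned to 1 higher and 3 lower without the 3 narrowest arrays and without DC 4. In RC against CC it was 1. It was 2 with centring (1 higher and 1 lower), with rows above the median level, with rows of 1 symbol and with only the compared groups in the fit. In this order, these settings called 1.01%, 2.47%, 2.25% and 0.838% of the rows tested, against 0.796% in the main fit. The count was 3 without the 3 narrowest arrays, 4 with each array's interquartile range as covariate, 14 with array weights, and 0 with either CC pair alone. Here 1.63%, 1.79%, 7.93% and up to 0.0647% of all rows were called. Without single arrays the count was 0 to 2, at 0 without RC 1, RC 4, CC 1, CC 3 or CC 4 and 2 without DC 4. The sample titles do not say whether same-numbered arrays of different conditions were paired. Their deviations from the condition means correlated from -0.36 to 0.47. For replicate 1 the correlations were 0.18 to 0.47, and for replicate 2 -0.27 to -0.06. The deviations sum to 0 within each condition, so these signs cannot settle the pairing. The replicate block left 2 clock genes called in DC against CC, where Nr1d1 did not pass (limma adjusted p = 0.057), 3 in RC against DC and 0 in RC against CC. Related probe sets called with it numbered 11, 2 and 0. In the same order, 5.21%, 1.94% and 0.191% of all rows were called, against 6.64%, 2.63% and 0.796% in the main fit. The share of all rows called in RC against DC was 8.13% without RC 3 and 1.47% to 1.63% without RC 1, RC 2, RC 4 or DC 2. In DC against CC it was 10.5% without RC 3, 4.36% without DC 2 and 4.42% without CC 1, and in RC against CC 0.16% to 0.425% without RC 1, RC 2, RC 4 or any CC array. The causes were not tested. No called difference changed sign. With 4 arrays per condition, the 95% intervals of the clock genes reached 0.12 (Cry2) to 0.23 (Per1) to either side of the estimate.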
